A study of Mus musculus with 6 samples.

Results

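The tropomyosin genes are Tpm1, Tpm2, Tpm3 and Tpm4, and they were chosen by name: the 4 rows of the deposited table whose gene symbol is one of these, of 27179 genes in all. Poly(A) RNA of whole cerebral cortex from C57BL/6N mouse embryos at E18.5 was sequenced. The Control group (3 libraries, FF1, FF2 and FF4) had the genotype Cap1 flx/flx, with both alleles of Cap1 flanked by recombination sites and no Cre. The CAP1-KO group (3 libraries, FCRE3, FCRE4 and FCRE5) had the genotype Cap1flx/flx,Nestin-CRE: the same flanked alleles plus a Cre transgene driven by the Nestin promoter. That promoter works in neural progenitors, so recombination also reaches the neurons and glia that descend from them. All 6 embryos carried the flanked alleles, and no group carried Cre alone, so the effect of the transgene cannot be told apart from that of Cap1 loss. CAP1 is a protein that helps to recycle actin from filaments to monomers, and the series asks how its loss changes transcription by the actin-sensitive factor SRF.

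Tropomyosins are coiled-coil proteins that lie end to end along actin filaments. They set which myosins, severing factors and crosslinkers can reach a filament, and in muscle they carry the troponin complex that makes contraction depend on calcium. Tropomyosin genes can give long proteins from a first promoter and short ones from an internal promoter; in brain, products of Tpm1, Tpm3 and Tpm4 are found in neurons and glia, while Tpm2 is best known from muscle and smooth muscle. Several tropomyosin genes are known targets of SRF, which binds the CArG box in DNA and is activated by the MRTF coactivators when the pool of actin monomers shrinks.

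All 4 genes were placed with RefSeq on GRCm38.p6. Tpm1 (gene number 22003) lies on chromosome 9 from 67022590 to 67049672 on the minus strand, and Tpm2 (22004) on chromosome 4 from 43513726 to 43523583 on the minus strand. Tpm3 (59069) lies on chromosome 3 from 90072651 to 90100902 on the plus strand, and Tpm4 (326618) on chromosome 8 from 72135288 to 72153142 on the plus strand. In the GENCODE M21 annotation, complete coding transcripts of Tpm1 fall into 10 long ones (281 to 326 codons, starting between 67049143 and 67049406) and 6 short ones (245 to 251 codons, starting between 67043709 and 67043962). Tpm3 has 2 long ones (284 and 285 codons) and 3 short ones (247 or 248 codons, starting between 90079540 and 90079715). Tpm2 has 3 transcripts, all of 284 codons, and Tpm4 has 1, of 248 codons. The deposited values are sums over each gene, so a long and a short product of Tpm1 or Tpm3 were not separated in any value below.

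The promoters are shown because 3 of the genes moved in the same direction and SRF binds DNA near the start of its targets. Each window runs from 250 bases before an annotated start to 50 after it, 5′ to 3′ on the gene's own strand (RefSeq, GRCm38.p6). Capitals mark matches to the CArG box with at most 1 mismatch, and the MCAT element CATTCC on either strand, which TEAD factors bind.
Tpm1, chr9:67049164-67049463, start of the long transcripts: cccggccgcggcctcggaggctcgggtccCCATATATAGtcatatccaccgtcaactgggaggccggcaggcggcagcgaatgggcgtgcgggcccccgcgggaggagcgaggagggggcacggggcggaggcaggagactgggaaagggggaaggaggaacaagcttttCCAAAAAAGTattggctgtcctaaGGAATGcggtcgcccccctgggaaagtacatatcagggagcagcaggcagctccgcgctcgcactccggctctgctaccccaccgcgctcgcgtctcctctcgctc
Tpm2, chr4:43523505-43523804: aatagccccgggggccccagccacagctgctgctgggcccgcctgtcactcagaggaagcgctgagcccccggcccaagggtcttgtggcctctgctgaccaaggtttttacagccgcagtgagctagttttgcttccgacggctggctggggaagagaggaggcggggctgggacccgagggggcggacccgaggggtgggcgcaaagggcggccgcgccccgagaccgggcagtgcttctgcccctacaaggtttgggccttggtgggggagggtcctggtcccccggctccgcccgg
Tpm4, chr8:72135038-72135337: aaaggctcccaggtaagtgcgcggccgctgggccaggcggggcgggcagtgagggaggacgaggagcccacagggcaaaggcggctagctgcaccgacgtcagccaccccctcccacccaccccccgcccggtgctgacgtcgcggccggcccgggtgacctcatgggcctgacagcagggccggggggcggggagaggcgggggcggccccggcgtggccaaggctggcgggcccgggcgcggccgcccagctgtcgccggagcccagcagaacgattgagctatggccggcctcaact
Tpm3, chr3:90079271-90079570, start of the short transcripts: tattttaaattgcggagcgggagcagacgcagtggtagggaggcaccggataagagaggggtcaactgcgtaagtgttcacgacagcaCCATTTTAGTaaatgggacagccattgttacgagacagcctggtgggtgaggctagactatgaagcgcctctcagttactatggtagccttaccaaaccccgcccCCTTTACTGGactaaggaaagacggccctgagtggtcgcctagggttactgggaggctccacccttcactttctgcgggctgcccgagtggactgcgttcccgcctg

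None of these windows, nor the window at the long start of Tpm3 (chr3:90072401-90072700), held a CArG box without a mismatch, which 1.63% of 32851 windows of the same length did. With 1 mismatch allowed, the Tpm1 window held 2, CCATATATAG at bases 30 to 39 and CCAAAAAAGT at bases 171 to 180, counted from 1 at the 5′ end. The short-transcript window of Tpm3 held 2 as well and its long-transcript window 1, while the windows of Tpm2 and Tpm4 held 0. A match with 1 mismatch was found in 21.1% of all windows. Among these windows only that of Tpm1 held an MCAT element (bases 195 to 200, as GGAATG on the strand shown), as did 14.7% of all windows. The start of the short Tpm1 transcripts had no window here and was not examined. A match is a description of the letters and not of binding.

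Among the libraries, depth recovered from the table lay between 32443864 and 36302598 reads. Cap1 measured 166 to 194 CPM (counts scaled to library size, the unit of all levels here) in the Control libraries, against 82.9 to 86.6 CPM in those of CAP1-KO, with no overlap between the groups. Markers of cortical projection neurons summed to 3385 and 3455 CPM in FF1 and FF2 but to 2294 CPM in FF4, which lay in the range of the CAP1-KO libraries (2272 to 2470 CPM). Sex was unbalanced: Xist reached 2296 CPM in FF2, the CAP1-KO libraries ranged from 2398 to 2653 CPM, with FF1 at 0.58 and FF4 at 2.05. Results are therefore given with and without FF4 where it matters, with Xist as a covariate, and against FF2 alone.

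Of the 4 tropomyosin genes 3 rose in CAP1-KO and 0 fell: Tpm2 by a ratio of 6.57, Tpm4 by 1.77 and Tpm1 by 1.28 (limma, Benjamini-Hochberg adjusted p under the threshold of 0.05 over 13885 genes). Tpm3 did not pass the test. Of all genes tested, 0.562% were called higher and 0.403% lower. In the 3 genes that rose, every CAP1-KO library lay above every Control library, as was the case for 11.1% of genes tested; groups were separated in either direction for 25.6%.

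Tpm2, which encodes the beta tropomyosin of muscle, was the least abundant of the 4 genes in Control and changed most. It measured 2.69 CPM in FF1, 2.53 in FF2 and 2.81 in FF4, and 16.3 CPM in FCRE3, 19.8 in FCRE4 and 16.7 in FCRE5. The Control libraries lay within 0.28 CPM of each other, and FCRE4 stood highest among the CAP1-KO libraries. These levels rest on 84, 85 and 93 reads in the Control libraries and on 608, 714 and 573 in the CAP1-KO libraries. The group means were 2.68 ± 0.14 and 17.6 ± 1.90 CPM (SD, n = 3 each). The log2 fold change was 2.33 (SE 0.10, 95% interval 2.11 to 2.56, limma adjusted p = 7.09e-05), a value on log2(CPM + 1), where a low gene appears to change by less than it does. With a pseudocount of 0.1 CPM it was 2.67. Tpm2 ranked 9 among the 78 genes called higher. It was called in all 15 alternative settings, with log2 fold changes from 2.25 to 2.70 and limma adjusted p up to 0.00375.

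Tpm4, whose product is found in stress fibres and growth cones, gained the most reads. It measured 101 CPM in FF1, 106 in FF2 and 105 in FF4, and 185 CPM in FCRE3, 176 in FCRE4 and 189 in FCRE5. The groups were far apart relative to the spread within each, and FCRE4, highest for Tpm2, was the lowest CAP1-KO library for Tpm4. The means were 104 ± 2.39 and 184 ± 6.72 CPM (SD, n = 3 each), with a log2 fold change of 0.81 (SE 0.05, 95% interval 0.71 to 0.92, limma adjusted p = 0.000203). Tpm4 was also called in all 15 alternative settings, with log2 fold changes from 0.78 to 0.88 and limma adjusted p up to 0.0128.

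Tpm1, which gives the alpha tropomyosin of muscle and several products in non-muscle cells, rose by less. It measured 78.5 CPM in FF1, 77.6 in FF2 and 85.1 in FF4, and 99.8 CPM in FCRE3, 108 in FCRE4 and 102 in FCRE5. FF4 was the highest Control library, nearest to the CAP1-KO group, and FCRE4 was again the highest of its own. The means were 80.4 ± 4.11 and 103 ± 4.41 CPM (SD, n = 3 each), with a log2 fold change of 0.36 (SE 0.06, 95% interval 0.23 to 0.49, limma adjusted p = 0.0335). This call was the least stable of the family: it held in 7 of 15 alternative settings. It was lost when FF1, FF2, FCRE3, FCRE4 or FCRE5 was left out (log2 fold change 0.32 to 0.38, limma adjusted p 0.056 to 0.175), with the Xist covariate (0.40, adjusted p = 0.217), with no filter on low genes (0.36, adjusted p = 0.0528) and against FF4 alone (0.27, adjusted p = 0.354). Without FF4 it was called with 0.40 (limma adjusted p = 0.000701), a setting in which 28.2% of all genes were called. Against FF2 alone, the Control library with a Xist level like that of the CAP1-KO libraries, it was 0.41 (limma adjusted p = 0.0141), where 13.0% of all genes were called.

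Tpm3, the source of short tropomyosins found in most cell types, took the most reads of the 4 genes in Control and did not pass the test. It measured 147 CPM in FF1, 148 in FF2 and 131 in FF4, and 136 CPM in FCRE3, 135 in FCRE4 and 136 in FCRE5. The CAP1-KO libraries lay within 1.05 CPM of each other and between FF4 and the other Control libraries, so the groups overlapped. The means were 142 ± 9.52 and 136 ± 0.54 CPM (SD, n = 3 each). The log2 fold change was -0.06 (SE 0.06, limma adjusted p = 0.545), with a 95% interval from -0.19 to 0.07. The sign turned with scaling to total reads (0.0035) and against FF4 alone (0.05), and without FF4 the gene was called lower (-0.12, limma adjusted p = 0.0472), again where 28.2% of all genes were called. FF4 thus stood apart from FF1 and FF2 both in Tpm3 and in the markers of cortical projection neurons given above; the part of the markers in this value was not tested.

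**Figure D1:**
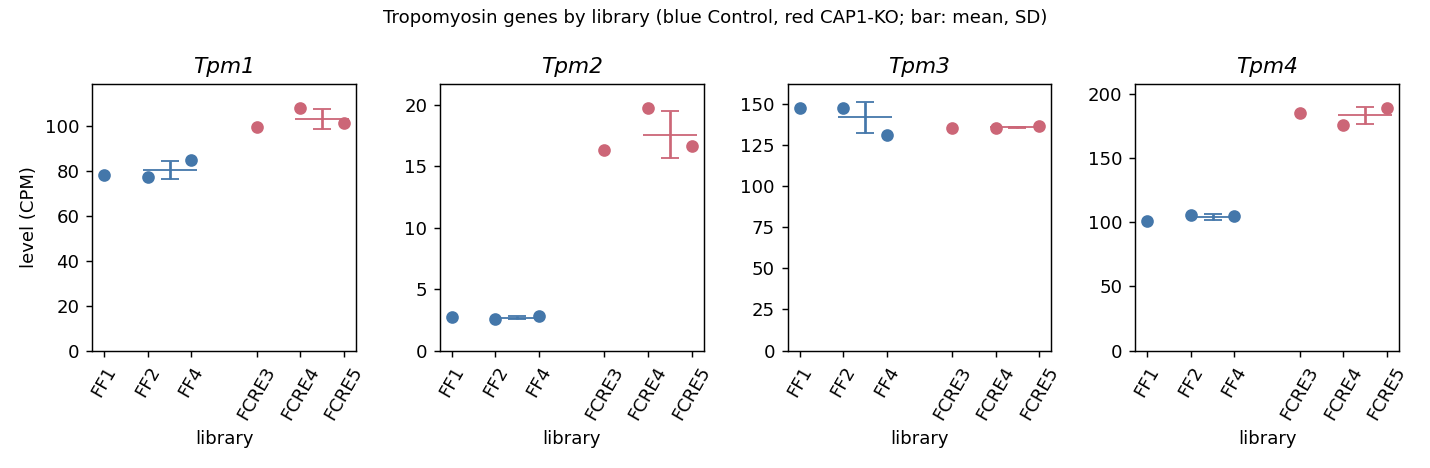
Level of each tropomyosin gene (y axis, CPM, starting at 0, 1 panel a gene) in each library (x axis); points are libraries, horizontal bars group means and vertical bars SD (n = 3). Tpm2, Tpm4 and Tpm1 show no overlap between Control (blue) and CAP1-KO (red), and for Tpm3 the Control library FF4 (131 CPM) lies below all CAP1-KO libraries.

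**Figure D2:**
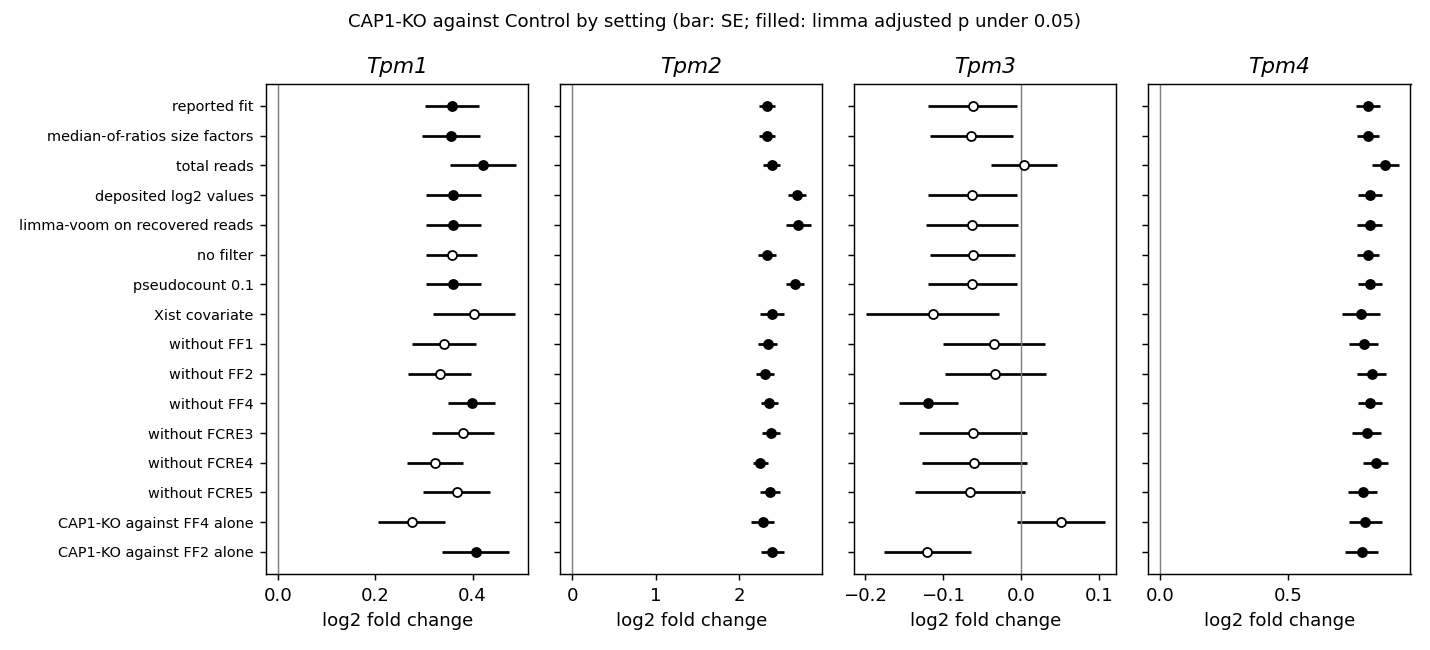
Log2 fold change of CAP1-KO against Control (x axis, a separate scale in each panel) for each gene under the reported fit and 15 other settings (y axis); bars are SE and filled points have a limma adjusted p under 0.05. Tpm2 and Tpm4 are filled throughout, Tpm1 in the reported fit and 7 other settings, and Tpm3 only without FF4.

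The sizes of the changes were compared between members inside each library, as differences of log2(CPM + 1). Tpm2 minus Tpm4 lay between -4.92 and -4.79 in Control and between -3.43 and -3.09 in CAP1-KO, a shift of 1.52. With a pseudocount of 0.1 CPM that shift was 1.85, since Tpm2 is low in Control. The corresponding shift of Tpm4 against Tpm1 was 0.46 in favour of Tpm4: Tpm1 minus Tpm4 lay between -0.44 and -0.30 in Control and between -0.89 and -0.70 in CAP1-KO. Tpm1 minus Tpm3 moved from between -0.92 and -0.62 to between -0.44 and -0.32, a shift of 0.42. For all 6 pairs of genes the within-library differences of the groups did not overlap. The exact two-sided permutation p was 0.1 for each (0.1 after Benjamini-Hochberg adjustment over the 6). That is the smallest p that 3 libraries against 3 allow, and full separation can give no other. The pairs share genes, so they are not independent results. How often other pairs of genes separate was not computed. Among single genes tested, 25.6% had groups that did not overlap, in either direction.

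Summed over the family, tropomyosin reads came to 329 ± 4.99 CPM in the Control libraries, compared with 440 ± 3.47 CPM after Cap1 deletion (SD, n = 3 each), a ratio of 1.34. The sums were 330 CPM in FF1, 334 in FF2 and 324 in FF4, and 437, 440 and 444 CPM in FCRE3, FCRE4 and FCRE5, so the groups were separated (exact two-sided permutation p = 0.1, the smallest possible). Tpm4 made up 71.7% of the added 111 CPM, with 79.6 CPM. Tpm1 added 22.8 CPM and Tpm2 14.9 CPM, while the mean of Tpm3 was 6.24 CPM lower. The gene with the largest fold change was therefore the smallest of the 3 contributors in reads.

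The make-up of the tropomyosin reads had less Tpm3 and more Tpm4 in every CAP1-KO library than in any Control library. Tpm3 held 44.7%, 44.3% and 40.5% of tropomyosin reads in FF1, FF2 and FF4, and 31.0%, 30.8% and 30.7% in FCRE3, FCRE4 and FCRE5. Tpm4 held 30.7%, 31.7% and 32.4% in Control and 42.4%, 40.1% and 42.6% in CAP1-KO. Tpm3 thus took the largest share of reads in every Control library and Tpm4 in every CAP1-KO library. Per kb of annotated exons, Tpm4 led in both groups, with 56.3% ± 0.97 in Control and 65.3% ± 1.45 in CAP1-KO, and Tpm3 went from 27.8% ± 1.71 to 17.5% ± 0.21 (SD, n = 3 each). Per kb of the median coding transcript, Tpm3 went from 39.5% to 28.2% and Tpm4 from 29.8% to 39.3%. As a share of reads, Tpm2 went from 0.81% ± 0.05 to 3.996% ± 0.43, and Tpm1 was at 24.4% ± 1.62 and 23.4% ± 1.01 (SD, n = 3 each). Per kb of annotated exons Tpm1 went from 14.8% ± 0.89 to 12.5% ± 0.69, without overlap (exact two-sided permutation p = 0.1). For shares of reads, the exact two-sided permutation p was 0.1 for Tpm2, Tpm3 and Tpm4 and 0.5 for Tpm1 (0.133 and 0.5 adjusted over the 4). The shares sum to 100% by construction, so the lower share of Tpm3 in CAP1-KO stands beside a level that did not pass the test.

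**Figure D3:**
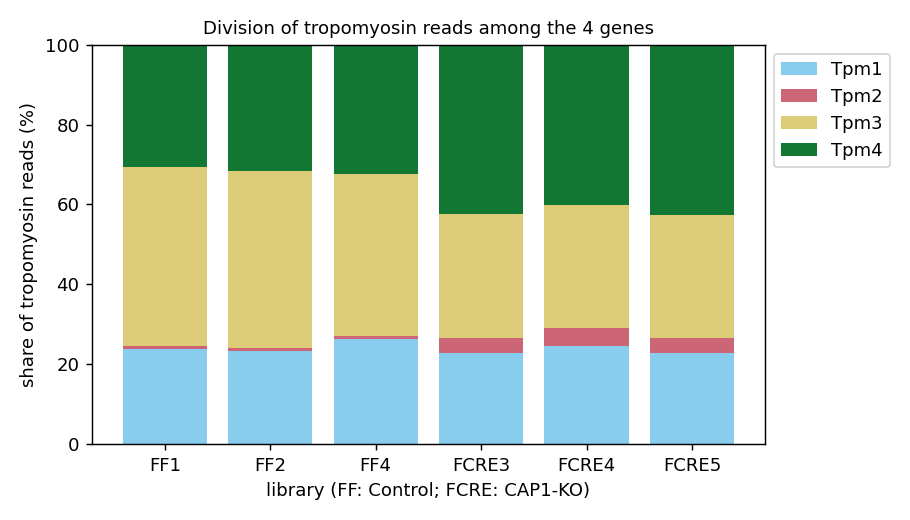
Share of tropomyosin reads (y axis, percent of the summed CPM of the 4 genes) in each library (x axis). Tpm3 has the largest share in each FF library (40.5% to 44.7%) and Tpm4 in each FCRE library (40.1% to 42.6%).

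Levels between genes can be compared only per length, and here the order depended on the length used. Per kb of all annotated exons (2.20 kb for Tpm4, 2.91 for Tpm2, 6.09 for Tpm3 and 6.49 for Tpm1), Control levels were 47.2 ± 1.08 CPM per kb for Tpm4, 23.3 ± 1.56 for Tpm3, 12.4 ± 0.63 for Tpm1 and 0.92 ± 0.05 for Tpm2 (SD, n = 3). On that scale neighbours in the order differed beyond their spread in both groups, and CAP1-KO kept the order, with 83.4 ± 3.05 for Tpm4 and 6.05 ± 0.65 for Tpm2. Per kb of the median complete coding transcript (1.64 kb for Tpm1 and 2.10 to 2.19 kb for the others), Control levels were 64.9 ± 4.35 CPM per kb for Tpm3, 49.0 ± 2.50 for Tpm1, 48.9 ± 1.12 for Tpm4 and 1.28 ± 0.07 for Tpm2. Tpm1 and Tpm4 did not differ there beyond their spread. In CAP1-KO the same scale gave 86.3 ± 3.16 for Tpm4, then 62.9 ± 2.68 for Tpm1 and 62.0 ± 0.25 for Tpm3, which lay within their spread, and 8.38 ± 0.90 for Tpm2. Tpm2 was lowest on both scales and in both groups.

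The members' transcripts were compared with each other and with the retrocopies Tpm3-rs7 and Tpm3-rs2, but not with other genes. No stretch of 50 bases was shared between annotated transcripts of any 2 of Tpm1, Tpm2, Tpm3 and Tpm4, and Tpm3-rs2 shared none with them. Tpm3-rs7, a retrocopy of Tpm3 on chromosome 14, shared 69.4% of its stretches of 50 bases with Tpm3, which is 23.2% of those of Tpm3. How such reads were assigned is not given in the sources used here, so the level of Tpm3 is uncertain to that extent, and Tpm3-rs7 was not analysed here. Tpm2 overlaps the 3′ end of its neighbour Car9 by 4 bases; Car9 had between 0 and 10 reads in each library. Tln1, the talin gene 7929 bases from Tpm2, measured 57.5 ± 4.70 CPM in Control against 57.1 ± 3.88 CPM with CAP1-KO (log2 change -0.01, adjusted p = 0.956 by limma). Rab8a, 8057 bases from Tpm4, measured 61.3 ± 2.17 and 60.1 ± 2.36 CPM (log2 fold change -0.03, limma adjusted p = 0.789), and Nup210l, which starts 104 bases after Tpm3, measured 2.82 ± 0.63 and 2.78 ± 0.29 CPM (0.00, limma adjusted p = 0.990).

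The genes whose pattern lay nearest to each tropomyosin were found by the root mean square difference of centred log2(CPM + 1) over the 6 libraries, among 13884 other genes. For Tpm2 they were Actg2, a smooth muscle actin (difference 0.11), Myl9, a regulatory myosin light chain (0.11), Tgfb1i1, a focal adhesion adaptor (0.14) and Pcp4l1 (0.16). The place of Actg2, which had 0, 1 and 2 reads in the Control libraries, was set by the pseudocount: with 0.1 CPM it ranked 2281, and Myl9 ranked 1. For Tpm4 they were Glipr2 (0.04), Colgalt2 (0.06), Actb, cytoplasmic beta-actin (0.07), Dstn, the actin-severing destrin (0.07), and Cald1, the tropomyosin-binding caldesmon (0.08). For Tpm1 they were Stmn4, a stathmin of neurons (0.02), Gpx1 (0.03), Ctsd (0.03), Hmox1 (0.04, rank 135 with a pseudocount of 0.1 CPM) and Anapc15 (0.04). The nearest genes of Tpm3 that have a symbol were Eif6 (0.0092), Gtf3c4 (0.0094), Spin1 (0.00995) and Yars (0.011). Likeness is easier to reach for a gene that moves little, so these distances rank genes within 1 member and not between members.

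Partners that work with tropomyosin on the filament differed in how many passed the test, and for each list the share called is read against 0.965% of all genes tested. By limma, 3194 of 13885 genes had an unadjusted p under 0.05 in either direction. Unadjusted counts in the partner and marker lists are read against that. Tropomodulins and leiomodins cap or elongate filament ends that carry tropomyosin. Of 7 listed, 3 were tested and 0 were called either way by limma (0 at an unadjusted p under 0.05), with a median log2 fold change of -0.04 beside -0.01 over all genes. Counts by limma-voom on recovered reads were the same for this and every other partner and marker list. Tmod2, the tropomodulin of neurons, measured 621 ± 16.4 CPM in Control and 571 ± 25.4 in CAP1-KO, and Tmod3 measured 81.9 ± 2.66 and 79.5 ± 2.98 CPM (SD, n = 3 each). Of 8 troponin subunits, which act with tropomyosin in striated muscle, only Tnnt3 reached the level needed for the test and it was not called (0 at an unadjusted p under 0.05, limma). Tnnt3 measured 0.63 ± 0.34 and 1.51 ± 0.84 CPM, so it reached the level tested only through CAP1-KO. Tnni3 measured 0.90 ± 0.46 and 1.01 ± 0.27 CPM.

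Caldesmon, calponins and transgelins bind along the filament beside tropomyosin. Of 7 listed, 6 were tested, and by limma 3 rose and 0 fell (3 and 0 at an unadjusted p under 0.05, median log2 fold change 0.42). Cald1 rose from 40.4 ± 2.04 to 65.8 ± 2.15 CPM, a log2 fold change of 0.69 (adjusted p = 0.00130, limma). The calponin Cnn2 rose by 3.73 and the transgelin Tagln by 3.36 on the log2 scale, while Cnn1 measured 0.29 ± 0.09 and 0.26 ± 0.08 CPM, below the level tested. Of 9 myosin II chains, whose access to actin tropomyosin controls, 3 rose and 1 fell (median 0.22). Myl9 rose by 2.38, Myh11, the smooth muscle heavy chain, by 1.92 and Myl6 by 0.64, and Myl6b fell by 0.56 on the log2 scale. Transcripts of the paralogs Myl6 and Myl6b shared 0 stretches of 50 bases. Tagln and Myh11 had Control means under 1 CPM and reached the level tested through CAP1-KO. The count and median of each of these lists thus rest in part on 1 gene that was tested only for that reason. With a pseudocount of 0.1 CPM the log2 fold changes of Tagln and Myh11 were 4.32 and 2.74. The heavy chains Myh9, Myh10 and Myh14 did not pass, with log2 fold changes of 0.04, 0.11 and 0.22. Cald1, Cnn2, Tagln, Myl9 and Myh11 were called in all 15 alternative settings. Myl6 was called in 9 and lost its call with Xist as a covariate, against FF4 alone and without FF1, FF2, FCRE3 or FCRE5; Myl6b was called in 8 and lost its call in those settings and with no filter.

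Of 10 listed kinase and phosphatase genes that control myosin light chains, 8 were tested and 0 were called either way by limma (0 higher and 1 lower at an unadjusted p under 0.05, median -0.02). Ppp1cb, the most abundant, measured 352 ± 21.2 and 321 ± 10.1 CPM, and Rock2 125 ± 0.85 and 123 ± 7.02 CPM. Among 12 other binders of actin filaments, severing factors, Arp2/3 subunits and crosslinkers, 4 rose and 0 fell by limma (6 and 1 at an unadjusted p under 0.05, median 0.13): Flna, filamin A, by 1.19, Dstn by 0.76, Cfl1 by 0.57 and Actn1 by 0.47 on the log2 scale. Flna and Dstn were called in all 15 alternative settings. Cfl1 was called in 12, not with Xist as a covariate or without FF1 or FCRE5, and Actn1 in 8, with losses in the same settings as Myl6b. Cfl2, Actr2 and Actn4 had log2 fold changes of -0.01, 0.04 and -0.10 and did not pass. Proteins that control splicing, several of which are known to act on tropomyosin exons, numbered 16 listed and 14 tested, with 0 called either way by limma (2 higher and 2 lower at an unadjusted p under 0.05, median 0.01). Celf2 measured 1284 ± 142 and 1120 ± 53.5 CPM, and Rbfox2 979 ± 99.0 and 903 ± 20.2 CPM. The list of SRF and its coactivators held 3 tested genes, of which Srf rose from 64.5 ± 4.67 to 105 ± 6.72 CPM, while Mrtfa (log2 fold change -0.36) and Mrtfb (-0.17) did not pass. Srf was called in 13 of 15 settings, not with Xist as a covariate or without FCRE5. Without FF4, where 28.2% of all genes were called, the calls in the 8 lists were 0 for tropomodulins and troponins, 3 higher and 1 lower for the caldesmon list, 4 and 1 for myosin II, 0 and 2 for the kinases and phosphatase, 5 and 2 for the other binders, 2 and 6 for the splicing regulators and 1 and 1 for SRF and its coactivators.

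**Figure D4:**
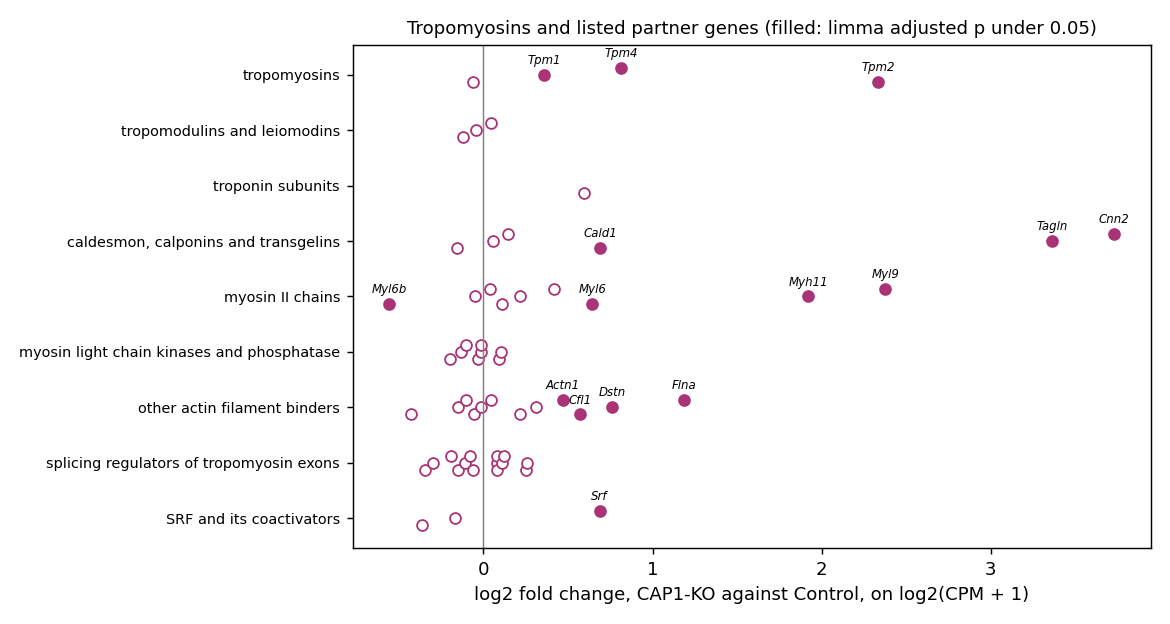
Log2 fold change of CAP1-KO against Control (x axis) for each tested tropomyosin gene and each tested gene of 8 partner lists (y axis, small vertical offsets only separate points); filled points have a limma adjusted p under 0.05 and are named. Tpm2 (2.33) lies between Myl9 (2.38) and Myh11 (1.92), with Cnn2 and Tagln further right. Srf, Cald1, Myl6, Dstn, Cfl1 and Actn1 lie below Tpm4 (0.81) and above Tpm1 (0.36).

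Tpm2 is abundant in smooth muscle and in the mural cells of vessels, so its level was set beside markers of other cells that the dissected tissue could hold. In bulk tissue, more cells of a type and more RNA per cell cannot be told apart. Of 13 mural markers, among them Pdgfrb, Rgs5, Kcnj8 and Abcc9, all were tested and 0 were called either way by limma (1 higher and 1 lower at an unadjusted p under 0.05, and 1 and 1 called without FF4). Log2 fold changes ran from -0.45 for Cspg4 (limma adjusted p = 0.0618) to 0.40 for Vtn (limma adjusted p = 0.180), 7 above 0 and 6 below, with a median of 0.00. The 13 mural markers summed to 194 to 206 CPM in Control and 183 to 207 CPM in CAP1-KO, and none was at 0. Among them Des, with a Control mean of 0.91 CPM, reached the level tested through CAP1-KO. The 8 contractile genes of smooth muscle had sums of 14.4 to 16.4 CPM in Control and 69.9 to 108 CPM in CAP1-KO. Of them 5 were tested, but Acta2, Tagln, Myh11 and Actg2, the 4 that were called higher, had Control means under 1 CPM and reached the level tested through CAP1-KO, so their count is not a measure of the list; each was also called with no filter. Among the contractile genes, Myocd, the SRF coactivator of smooth and cardiac muscle, measured 0.07 ± 0.05 and 0.04 ± 0.04 CPM. Endothelial markers summed to 162 to 181 CPM in Control and 128 to 144 CPM in CAP1-KO, with 2 of 10 lower, Flt1 and Kdr, called in 10 and 6 of 15 settings; without FF4, 6 were lower.

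Meningeal and choroid plexus markers were higher in some CAP1-KO libraries. The 10 meningeal markers summed to 17.0 to 18.0 CPM in Control, while FCRE3 had 18.6 CPM, FCRE4 102 CPM and FCRE5 91.3 CPM (0 of 7 tested were called by limma, 5 were higher at an unadjusted p under 0.05, and 1 was called higher without FF4). Without FCRE3, where 0.497% of all genes were called, 5 of the 7 were called higher. That setting leaves out the CAP1-KO library with the lowest meningeal sum, so its count is not a separate test of the list. All counts over the 7 include Slc6a13, whose Control mean was only 0.18 CPM. It reached the level tested through CAP1-KO. Tpm2 measured 16.3 CPM in FCRE3, 19.8 in FCRE4 and 16.7 in FCRE5. Without FCRE4 the log2 fold change of Tpm2 was 2.25 (limma adjusted p = 0.00062). The 7 choroid plexus markers summed to 1.19 to 5.14 CPM in Control and to 100.5, 115 and 52.9 CPM in FCRE3, FCRE4 and FCRE5; Ttr rose. All 4 choroid plexus genes tested had Control means under 1 CPM and reached the level tested through CAP1-KO, so no count over them is given. The part of meninges and choroid plexus in the tropomyosin levels was not tested. Skeletal muscle markers summed to 14.1 to 23.5 CPM in Control and 18.9 to 32.1 CPM in CAP1-KO, and FCRE5 (18.9 CPM) lay below FF4 (23.5 CPM). Of 6 tested, 0 were called by limma (3 higher at an unadjusted p under 0.05, 2 called higher without FF4). All counts over the 6 include Mylpf and Tnnt3, whose Control means were 0.90 and 0.63 CPM. Both reached the level tested through CAP1-KO, so these counts are not a measure of the list. Cardiac markers summed to 4.74 to 9.70 and 8.37 to 10.5 CPM, with Nkx2-5 at 0 reads in every library and 0 of 1 tested called by limma (0 at an unadjusted p under 0.05, 1 called higher without FF4). Microglial markers summed to 57.9 to 74.5 CPM in Control and 85.4 to 107 CPM in CAP1-KO, and without FF4 7 of 10 were called higher. The 10 include Aif1, which had a Control mean of 0.93 CPM and reached the level tested through CAP1-KO. Red blood cell markers summed to 153 to 166 and 138 to 249 CPM, with 0 of 4 tested called by limma (0 at an unadjusted p under 0.05). Of the markers of the labelled tissue, all 10 of cortical projection neurons and all 8 of radial glia were expressed, with 0 called in either list by limma (4 and 0 lower at an unadjusted p under 0.05); without FF4 10 of the projection neuron markers and 1 of radial glia were called lower.

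**Figure D5:**
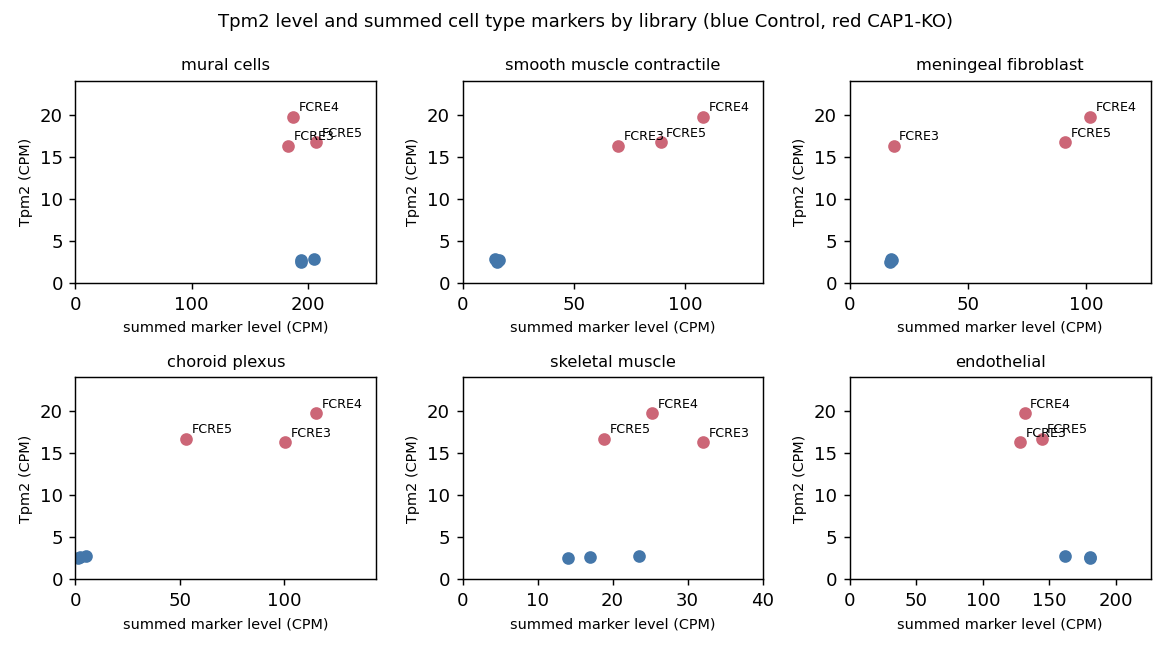
Tpm2 level (y axis, CPM) against the summed level of 6 marker lists (x axis, CPM, starting at 0, 1 panel a list) in each library, blue for Control and red with names for CAP1-KO. Tpm2 and the smooth muscle contractile (14.4 to 16.4 CPM in Control, 69.9 to 108 CPM in CAP1-KO) and choroid plexus sums (1.19 to 5.14 and 52.9 to 115 CPM) are higher in every CAP1-KO library. Meningeal sums are also higher in each, with FCRE3 (18.6 CPM, Tpm2 at 16.3 CPM) close to Control. Endothelial sums are lower in each, and mural and skeletal muscle sums overlap. The part of these cells in the Tpm2 level was not tested.

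The authors' deposited table gave the same calls for the family. In the authors' deposited table the log2 fold change was 2.71 for Tpm2 (FDR 1.47e-06), 0.82 for Tpm4 (FDR 3.18e-05), 0.36 for Tpm1 (FDR 0.0227) and -0.06 for Tpm3 (FDR 0.825). The authors' deposited table called 0.401% of 27179 genes higher and 0.412% lower at an FDR under 0.05.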

How the data were processed

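RNA was measured in 6 libraries, 3 Control and 3 CAP1-KO, made from poly(A) RNA as strand-specific libraries per the labels' protocols. STAR, edgeR, GRCm38 and mm10 are named in the submitters' processing notes; for the read counter, annotation and filters, nothing is given in the sources used here. The authors deposited log2 normalized counts per library, and beside them, per the file headers, a log2 fold change, a mean log2 CPM, an F score, a p-value and an FDR. Columns were assigned to groups by genotype in their names (FF, FCRE); their numbers do not match those of the labels. Whether embryos shared a litter is not stated, so p-values measure the spread between these libraries.

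The lowest value of every library was the same, and its antilog, 0.0584 CPM, was subtracted. All values (100%) then lay within 0.01 of a whole read. The 13885 genes averaging 1 CPM or more were tested with limma 3.58.1 in R 4.3.3 (trend) on log2(CPM + 1), two-sided, with Benjamini-Hochberg adjustment over all genes; 1 CPM is 31.2 to 37.3 reads. The script was tested on simulated data. Single values were compared by exact permutation. The members, partner lists, markers and the rule for named genes (members, Cap1, Xist, the 5 nearest genes of each member, up to 4 called genes of a list or else its 2 most abundant) were chosen with earlier results of these data known. Genes named outside it (neighbours, and list or marker genes that were not called) were picked after their values were seen. Some genes that the rule names are not reported here. Missing gene symbols were taken from RefSeq by gene number. Figures used matplotlib 3.10.9.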

Additional observations from a re-analysis of the deposited data

How the results depend on the processing

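The settings tried were other size factors, total reads, the deposited log2 values, limma-voom, no filter, a pseudocount of 0.1 CPM, Xist as a covariate, leaving out each library and FF4 as the only Control; FF2 as the only Control, the median coding transcript as length, and a pseudocount of 0.1 CPM for differences between members and nearest genes, were chosen after seeing the data. Where a comparison has 1 Control library, that library is assumed to vary like the CAP1-KO group. The cause of the changes below was not tested. Tpm2 and Tpm4 kept direction and call in all 15 settings. The Tpm1 call was lost with no filter (0.36, limma adjusted p = 0.0528), the Xist covariate (0.40) and FF4 alone (0.27); leaving out 1 library gave 0.32 to 0.40. Tpm3 turned sign with total reads (0.0035) and FF4 alone (0.051), and leaving out 1 library gave -0.12 to -0.033. Leaving out 1 library, the number of genes called higher ranged from 33 (without FCRE5) to 1299 (without FF4), beside 78, and called lower from 3 to 2623, beside 56. With the Xist covariate 23 were higher and 3 lower, with FF4 alone 43 and 12, with FF2 alone 626 and 1185, and with no filter 20 were lower. Scaling to total reads moved the median of all genes by 0.06 and called 104 higher and 54 lower. The change in the share of Tpm2 was 3.18 percentage points, and 3.64 per kb of annotated exons; leaving out 1 library gave 2.93 to 3.32 for Tpm2, -1.59 to -0.07 for Tpm1, -13.6 to -11.5 for Tpm3 and 9.64 to 10.9 for Tpm4. No paired analysis was possible because the labels give no litter or other link between Control and CAP1-KO embryos. A floor of 3 reads is far below the 84 reads of the lowest member value, so depth did not limit detection of any member.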
